A study of Mus musculus with 6 samples.

Results

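The Gimap genes (GTPases of immunity-associated proteins) lie together on mouse chromosome 6, and all 9 that are named here were found in the expression table of 21135 genes by their Ensembl identifiers, paired with symbols through GENCODE release M21. They are Gimap8, Gimap9, Gimap4, Gimap6, Gimap7, Gimap1os, Gimap1, Gimap5 and Gimap3 in order along the chromosome, and all 9 passed the filter on low values, a mean of at least 10 normalised reads, as did 17815 genes in all. The genes were named by family and position, and the family was selected on its normalised read counts in the mutant and wild-type libraries, which were known when it was proposed. The differences between genotypes in the members are therefore a description, given without a p, and support nothing by themselves.

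RNA was sequenced from DN3 thymocytes of C57BL/6 mice in 6 libraries. DN3 cells are the CD4- and CD8-negative stage of the thymus at which the T-cell receptor beta gene is rearranged. In 3 libraries the mice were homozygous for mutations of GATA sites 1 and 2 of NMe, a Notch-bound distal enhancer of Myc on chromosome 15, and in the other 3 NMe was wild type. GATA sites are short motifs bound by Gata3 and its relatives. The labels do not say whether the libraries came from separate animals, so the errors measure the spread between these libraries, which may be technical.

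GIMAP proteins are GTP-binding proteins that are made mainly in lymphocytes and share a GTPase domain of the AIG1 type. Several sit on the membranes of lysosomes, mitochondria, the endoplasmic reticulum or the Golgi apparatus. In mice and rats that lack Gimap5, and in mice that lack Gimap1, mature lymphocytes are few, and the family is best known for its part in lymphocyte survival. Their levels change as thymocytes mature.

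The members spanned 124 kb of chromosome 6 (GRCm38, 48647234 to 48770851), with 6 genes on the plus strand and 3, Gimap6, Gimap1os and Gimap3, on the minus strand. Gimap1os is an antisense transcript that overlaps Gimap1. The 2 genes share 1107 exon bases, 36.0% of the exon bases of Gimap1 and 35.7% of those of Gimap1os. The library kit does not mark strand, so reads from these bases cannot be assigned to either gene with certainty. A further gene model, Gm28053, joins short stretches of exon of Gimap7, Gimap1 and Gimap5, which make up 8.19%, 20.0% and 15.5% of its own exon bases. It takes up 3.48% of the exon bases of Gimap7, 6.44% of those of Gimap1 and 3.69% of those of Gimap5. Of the 2478 different stretches of 100 bases in the transcripts of Gimap3, 41 (1.65%) were also present in those of Gimap5, and no other pair of coding members shared one.

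The 250 bases before the transcription start are shown for 5 members, chosen for what they hold: Gimap8, which has the largest difference between genotypes, and the 4 members with a match to a GATA or a RUNX motif. The sequences are those of RefSeq on GRCm38.p6, written from the 5′ to the 3′ end on the strand of the gene, and the capitals mark matches to the GATA or RUNX letters. They lie at chr6:48646984-48647233, + strand (the upstream one of 2 starts of Gimap8), chr6:48675885-48676134, + strand, chr6:48684328-48684577, + strand, chr6:48718371-48718620, + strand and chr6:48738797-48739046, + strand.
Gimap8: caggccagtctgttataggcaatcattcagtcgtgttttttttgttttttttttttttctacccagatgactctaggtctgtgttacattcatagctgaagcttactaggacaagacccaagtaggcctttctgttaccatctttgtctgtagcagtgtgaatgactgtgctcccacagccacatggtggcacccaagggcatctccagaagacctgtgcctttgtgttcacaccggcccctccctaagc
Gimap9: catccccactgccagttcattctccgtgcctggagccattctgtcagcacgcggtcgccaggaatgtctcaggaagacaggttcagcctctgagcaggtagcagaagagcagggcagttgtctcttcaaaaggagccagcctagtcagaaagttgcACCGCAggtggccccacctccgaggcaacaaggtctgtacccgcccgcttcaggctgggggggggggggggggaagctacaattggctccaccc
Gimap4: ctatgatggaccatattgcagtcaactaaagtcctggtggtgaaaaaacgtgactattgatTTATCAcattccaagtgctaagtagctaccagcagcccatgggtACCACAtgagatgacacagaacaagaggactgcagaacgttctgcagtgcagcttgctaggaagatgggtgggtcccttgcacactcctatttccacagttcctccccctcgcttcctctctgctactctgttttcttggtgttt
Gimap7: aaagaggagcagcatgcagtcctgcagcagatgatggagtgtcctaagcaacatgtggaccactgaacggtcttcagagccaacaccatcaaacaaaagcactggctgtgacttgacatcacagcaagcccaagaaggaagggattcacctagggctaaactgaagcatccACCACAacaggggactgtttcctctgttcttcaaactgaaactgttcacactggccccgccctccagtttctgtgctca
Gimap1: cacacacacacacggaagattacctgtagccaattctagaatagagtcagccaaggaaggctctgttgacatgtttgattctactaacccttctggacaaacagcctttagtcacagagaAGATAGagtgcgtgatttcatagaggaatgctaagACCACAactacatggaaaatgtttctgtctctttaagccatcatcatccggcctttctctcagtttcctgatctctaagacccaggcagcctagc

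RefSeq windows were at hand for 8 of the 9 members, 9 windows in all because Gimap8 has 2 starts. Positions are from the RefSeq starts. Those of Gimap1 and Gimap6 lie just outside the gene in GENCODE M21 (48739047 against a first base at 48739054 for Gimap1). The GATA letters searched were AGATAA, its variant AGATAG, the form TGATAA and its variant TGATAG, on either strand. They were found in 2 of the 9 windows, in Gimap4 (first base at -189 from the start) and Gimap1 (at -130), against 26.5% of 32851 windows of all genes. The RUNX letters TGTGGT and TGCGGT, the motif of the Runx factors of the T lineage, were found in 4 windows, in Gimap9 (at -94), Gimap4 (at -145), Gimap7 (at -79) and Gimap1 (at -95), against 18.6% of all windows. None of these matches overlapped another. The E-box CACGTG that MYC binds (6.02% of all windows), the RBPJ letters TGGGAA of Notch signalling (21.6%), the TCF letters CTTTGA (13.8%) and the ETS letters CCGGAAG (6.91%) were in none of the 9. These are matches of letters and not binding sites.

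Recovered reads came to 43.0 ± 4.9 M per mutant library and 47.2 ± 4.5 M per wild-type library (SD, n = 3 each). Myc changed by -1.82 ± 0.12 on the log2 scale in the mutant (SE, limma adjusted p = 4.22e-05). The DN3 markers, 8 of 8 measured, summed to 276809 to 317719 normalised reads in the mutant and 189487 to 215928 in the wild type, with 4 called higher and 1 lower. Sums in the mutant and in the wild type were 9230 to 18094 against 4443 to 7286 for 4 of 6 markers of NK and innate lymphoid cells (nearly all Nkg7). They were 5760 to 6676 against 4125 to 5176 for 3 of 5 endothelial markers (nearly all Pecam1, while Cdh5 and Kdr had at most 19.0 in any library), 2427 to 3872 against 2352 to 2781 for 3 of 5 B-cell markers (nearly all Cd79b), 1119 to 2037 against 1147 to 1617 for 4 of 6 myeloid markers (nearly all Lyz2) and 4230 to 7185 against 4102 to 4990 for 2 of 5 epithelial markers (nearly all Epcam). Of these, Nkg7 and Pecam1 were called higher and 0 lower. The 3 of 4 erythroid markers measured summed to 33.1 to 53.8 in the mutant and 15.1 to 6509 in the wild type, with 0 called. Wild type replicate 2 alone held haemoglobin reads in number (3523 for Hbb-bs and 2730 for Hba-a1, against at most 22.3 for either in any other library). The part of other cells in the results was not tested.

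Most members of the family were higher in the mutant. The libraries of the genotypes did not overlap in 7 of the 9 genes, each time with the mutant higher, where 18.0% of all tested genes did not overlap with the mutant higher, 20.3% did not with the mutant lower and 38.3% did not in either direction. Since the genes were proposed with this contrast in view, nothing is read from this count. The median log2 change of the 9 was 0.95, and that of all tested genes 0.03. In sequenced bulk samples, more cells that carry a transcript and more transcript per cell cannot be told apart. The plot of values by library shows all members.

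**Figure D1:**
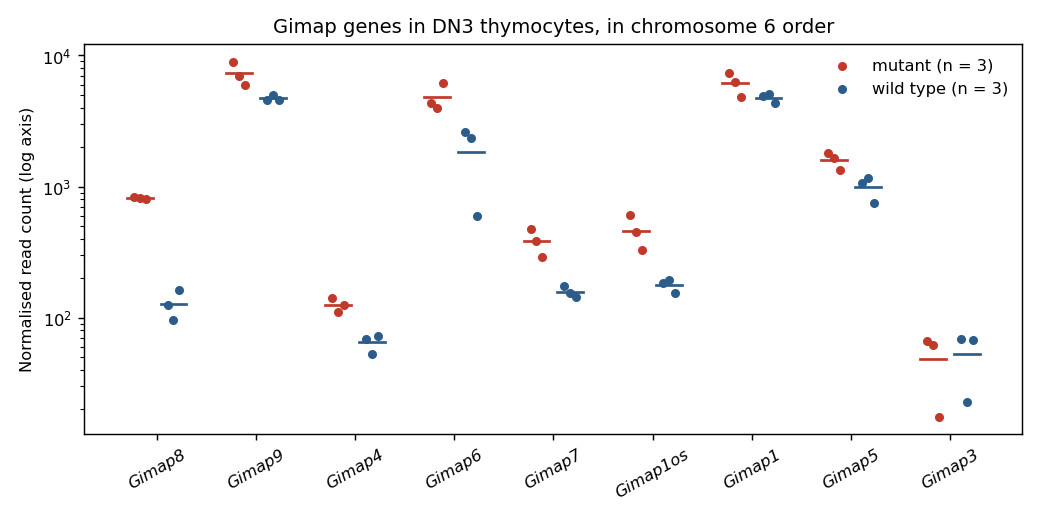
Normalised read counts (log axis) of the 9 Gimap genes in 3 mutant libraries (red, left of each pair) and 3 wild-type libraries (blue, right), with each point a library and each line a mean. Gimap8 shows the widest gap, with 811 to 840 in the mutant and 95.5 to 163 in the wild type, and Gimap1 and Gimap3 overlap.

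Gimap8 encodes the largest protein of the family, in which the GTPase domain is repeated. It had 840, 825 and 811 normalised reads in the mutant libraries, against 124, 95.5 and 163 in the wild-type libraries. The mutant libraries lay close together and far above each wild-type library, with a mean of 825 ± 15 in the mutant and 127 ± 34 in the wild type (SD, n = 3 each). This is a 6.47-fold difference, or 2.72 ± 0.21 on the log2(value + 1) scale (SE). It rests on 735 to 911 reads per mutant library and 100 to 183 reads per wild-type library, and it ranged from 2.53 to 2.91 over 15 other settings.

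Gimap4 and Gimap6 stand next to each other in the middle of the cluster. Gimap4, whose loss in mice delays the death of T cells, was rare, with 140, 111 and 125 normalised reads in the mutant and 68.9, 52.5 and 73.0 in the wild type. Each mutant library lay above each wild-type library, by 1.94-fold on the means (log2 change 0.95 ± 0.26). Gimap6 encodes a cytosolic member that binds GABARAP proteins of autophagy. It had 4376, 3968 and 6169 in the mutant and 2596, 2358 and 600 in the wild type. Wild type replicate 3 was far below the other wild-type libraries, and the groups did not overlap. The log2 change of Gimap6 was 1.62 ± 0.46, and 0.94 without that replicate. Wild type replicate 3 also stood apart from wild type replicates 1 and 2 on the second principal component of all tested genes (-55.1 against 33.9 and 23.4), which held 17.1% of the variance.

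Gimap9, about whose function little is known, was the most abundant member per kb of exon in both genotypes. By normalised reads its mean was above that of Gimap1 in the mutant (7314 against 6158). In the wild type it was slightly below (4701 against 4779). Gimap9 had 8961, 6992 and 5990 normalised reads in the mutant and 4565, 4987 and 4551 in the wild type. The lowest mutant library exceeded the highest wild-type library, and the mean was 1.56-fold higher (log2 change 0.62 ± 0.14). Gimap7, whose human counterpart works as a GTPase in dimers, had 477, 385 and 292 in the mutant and 176, 156 and 143 in the wild type (2.43-fold, log2 change 1.25 ± 0.22). The groups of Gimap7 did not overlap, and mutant replicate 1 was highest and mutant replicate 3 lowest for both genes.

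Gimap1 and its antisense transcript Gimap1os differed in the size of their change although they share exon bases. Gimap1, which mice need for mature T and B cells, had 7359, 6276 and 4840 normalised reads in the mutant and 4881, 5090 and 4365 in the wild type. Mutant replicate 3 lay within the wild-type range, and the log2 change was 0.35 ± 0.15, from 0.21 without mutant replicate 1 to 0.51 without mutant replicate 3. Gimap1os had 606, 450 and 331 in the mutant and 183, 194 and 155 in the wild type, without overlap (2.61-fold, log2 change 1.34 ± 0.23). The difference between the changes of these genes was not tested.

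Gimap5 and Gimap3 are close relatives that have been reported to bind BCL2 proteins. Gimap5 had 1806, 1651 and 1344 normalised reads in the mutant and 1069, 1174 and 751 in the wild type. Each mutant library was above each wild-type library, by 1.60-fold on the means (log2 change 0.70 ± 0.18). Gimap3, which in mice affects how mitochondrial DNA segregates in blood cells, was the rarest member, with 66.5, 62.5 and 17.7 in the mutant and 68.9, 22.9 and 67.6 in the wild type. Its libraries overlapped widely, and 1 library of each genotype was low. The log2 change was -0.17 ± 0.58, with a 95% confidence interval of -1.47 to 1.13, and 2-fold differences in either direction lie within this interval. Its sign turned to 0.43 without mutant replicate 3, 0.09 without wild type replicate 1 and 0.07 without wild type replicate 3.

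Summed over the 8 protein-coding members, the cluster had 24026, 20270 and 19588 normalised reads in the mutant and 13549, 13935 and 10713 in the wild type, a 1.67-fold difference of the means with no overlap. Gimap8 gave 3.90 ± 0.35% of it in the mutant and 1.04 ± 0.43% in the wild type, and Gimap1 28.8 ± 3.5% in the mutant and 37.8 ± 2.6% in the wild type (SD, n = 3 each). The libraries of the genotypes did not overlap in these shares. Nor did they for Gimap7, with 1.79 ± 0.26% in the mutant and 1.25 ± 0.12% in the wild type. Gimap6 had the widest gap in percentage points, 23.1 ± 7.3% in the mutant and 13.9 ± 7.3% in the wild type, but its libraries overlapped. In wild type replicate 3 the share of Gimap6 was 5.60%, against 19.2% and 16.9% in wild type replicates 1 and 2. The shares of Gimap1 (40.7%) and Gimap9 (42.5%) were the highest of any library there. Their normalised reads were instead the lowest of any library there (4365 for Gimap1 and 4551 for Gimap9). Gimap9 gave 34.1 ± 3.4% in the mutant and 37.3 ± 4.6% in the wild type, and Gimap5 7.51 ± 0.64% in the mutant and 7.77 ± 0.71% in the wild type. The shares of Gimap9 and Gimap5 differed by less than the spread between libraries.

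Levels were compared between members as normalised reads per kb of exon. In the mutant the order ran from Gimap9 (4454 ± 921) and Gimap1 (2004 ± 411) through Gimap6 (1384 ± 335), Gimap5 (386 ± 57), Gimap8 (223 ± 3.9), Gimap7 (165 ± 40) and Gimap1os (149 ± 44) to Gimap4 (68.3 ± 7.9) and Gimap3 (19.0 ± 10.5). In the wild type it ran from Gimap9 (2863 ± 151) and Gimap1 (1555 ± 121) through Gimap6 (529 ± 312), Gimap5 (240 ± 53), Gimap7 (68.1 ± 7.1) and Gimap1os (57.2 ± 6.5) to Gimap4 (35.3 ± 5.9), Gimap8 (34.4 ± 9.1) and Gimap3 (20.6 ± 10.2). Gimap8 stood in place 5 in the mutant and in place 8 in the wild type, and the other members kept their order relative to each other. Neighbours in the order whose libraries overlapped were Gimap1 and Gimap6, and Gimap7 and Gimap1os, in the mutant. In the wild type they were Gimap6 and Gimap5, Gimap7 and Gimap1os, Gimap4 and Gimap8, and Gimap8 and Gimap3. All reads of a gene were also divided by only the exon bases that no other gene shares. This presumes that reads on shared bases were not counted, which is not known. On this measure Gimap1os came to 232 ± 69 in the mutant and 89.0 ± 10.1 in the wild type. It stood above Gimap7 (171 ± 41 in the mutant and 70.5 ± 7.4 in the wild type). In the mutant it then also stood above Gimap8 (223 ± 3.9), by less than the spread between libraries, which put Gimap8 in place 6 there. The places of Gimap1os, Gimap7 and, in the mutant, Gimap8 thus depend on how shared bases are counted.

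**Figure D2:**
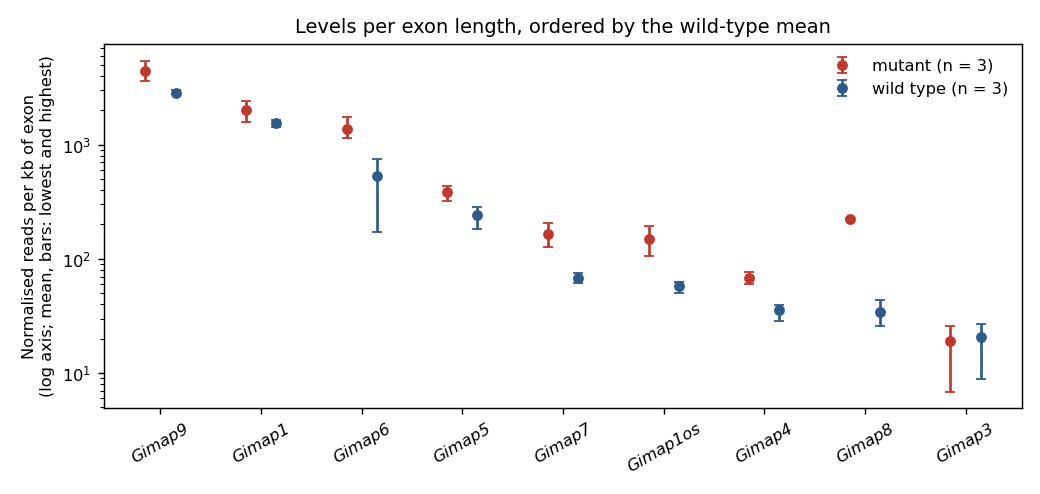
Normalised reads per kb of exon (log axis) of the 9 members in mutant (red, left) and wild-type (blue, right) libraries, ordered by the wild-type mean, with points at the mean of 3 libraries and bars from the lowest to the highest library. Gimap9 is highest in both genotypes (4454 in the mutant and 2863 in the wild type), and Gimap8 departs most from the wild-type order.

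Within a genotype the members did not all vary together. The log2 deviation of each library from the mean of its genotype was correlated between members over the 6 libraries, which share depth and scaling, as a description. Gimap9, Gimap7, Gimap1os, Gimap1 and Gimap5 deviated together, with r from 0.63 to 0.99 over their 10 pairs and a median of 0.90. These 5 were picked out after their values were seen. Gimap1 and Gimap1os had the highest value (0.99), and they share exon bases. Over all 36 pairs of members r ran from -0.82 (Gimap8 and Gimap6) to 0.99, with a median of 0.33. Mutant replicate 1 was the highest and mutant replicate 3 the lowest mutant library for each of the 5 genes, by 0.43 and -0.44 for Gimap1os. Gimap8 and Gimap3 had the same order of mutant libraries. So did genes outside the family such as Epcam, Nkg7, Cd79b and Lyz2, while Pecam1 and Bcl2 did not. The order is thus not particular to these members. For Gimap6 mutant replicate 3 was highest instead (0.38).

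**Figure D3:**
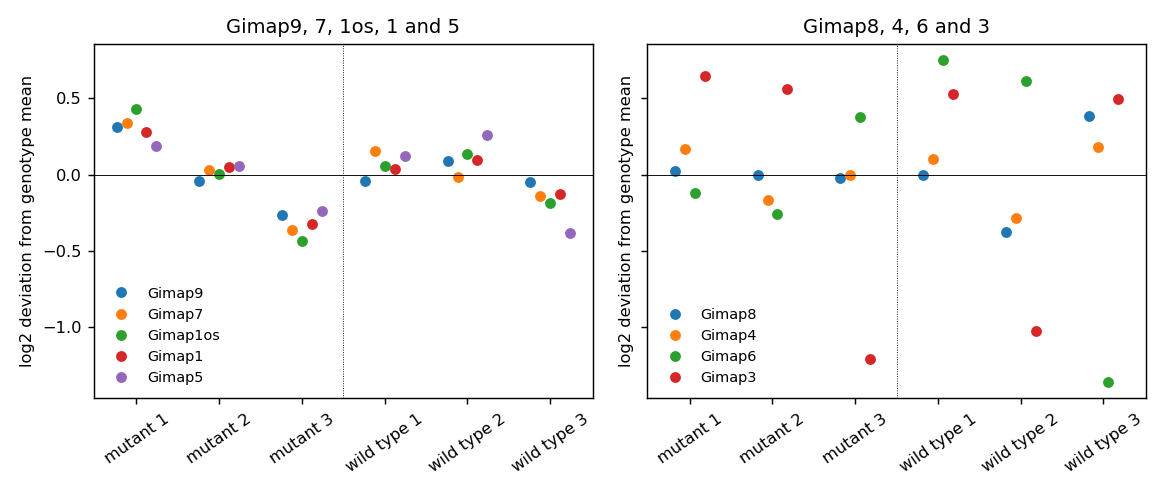
Log2 deviation of each library from the mean of its genotype, mutant libraries left of the dotted line and wild-type libraries right, with 1 point per gene and library. The 5 genes of the left panel lie above 0 in mutant replicate 1 and below it in mutant replicate 3. In the right panel so do Gimap8 (0.03 and -0.03), Gimap4 (0.17 and -0.003) and Gimap3 (0.65 and -1.21), while Gimap6 lies at -0.12 and 0.38. In the wild type the genes of the right panel do not share 1 pattern, and Gimap6 lies at -1.36 in wild type replicate 3.

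The genes around the cluster are no members and were tested, although earlier results of these data were known when they were chosen. Within 1 Mb of the first and last base of the members the table held 41 other genes on chromosome 6, of which 38 passed the filter. Of these 6 rose and 2 fell in the mutant by the limma test (adjusted p under 0.05 after Benjamini-Hochberg adjustment over all genes), with a median log2 change of 0.15. This is 21.1% of them, where 7.94% of all tested genes rose and 10.9% fell, 18.8% in all. The share in both directions together is thus near that of all genes. By direction, more of the genes near the cluster rose than fell, while among all genes more fell than rose. The contrast depends on scaling, since with every library scaled to the same total 1827 of all genes rose and 1647 fell. This difference was not tested, and nothing is read from it. One of the 6, Gm28053, has 43.7% of its exon bases in common with members and is not independent of them. Without it, 5 of 37 genes rose and 2 fell (18.9%). Of the 38, 5 were called on leaving out mutant replicate 1, mutant replicate 2 or wild type replicate 2. The plot of log2 changes along the locus shows them with the members.

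**Figure D4:**
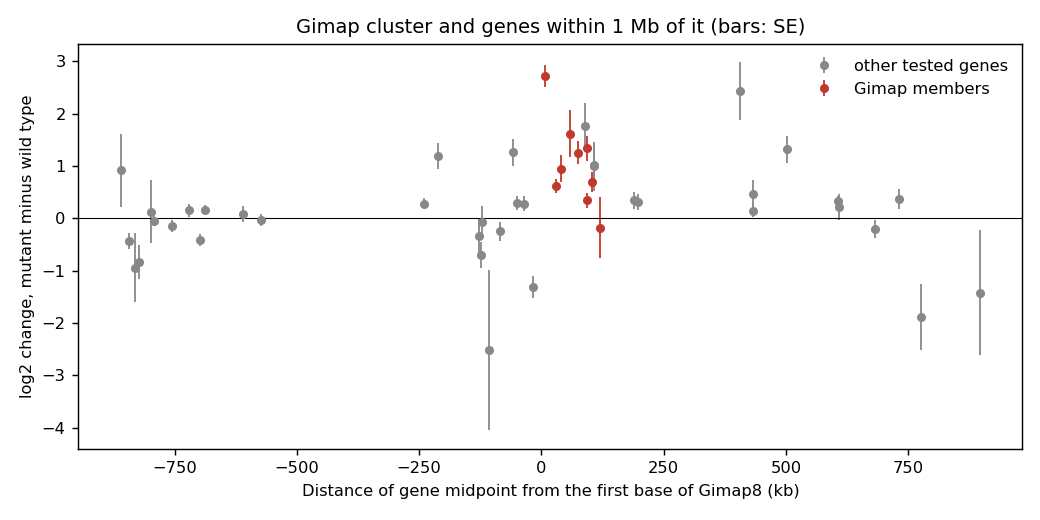
Log2 change, mutant minus wild type, of the 9 Gimap genes (red) and the 38 other tested genes within 1 Mb (grey) against the distance of the middle of each gene from the first base of Gimap8, in kb, with bars of 1 SE. Of the members, 8 lie above 0, while the other genes lie on both sides of it. The other genes run from -2.52 for Atp6v0e2 to 2.44 for Gpnmb. Atp6v0e2 had 149, 124 and 0 normalised reads in the mutant and 138, 101 and 246 in the wild type, with 1 library at 0. Gpnmb had means of 37.5 in the mutant and 6.01 in the wild type.

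Inside the cluster 3 tested genes were not members. Gm28053, which shares exon bases with members, had 50.7, 39.8 and 30.9 normalised reads in the mutant and 8.48, 11.5 and 13.3 in the wild type. The groups did not overlap, and the log2 change was 1.77 ± 0.44. No p is given for it because of the shared bases. The noncoding Gm44226 (1.02 ± 0.41, adjusted p = 0.113) and 4833403J16Rik (0.99 ± 0.48, adjusted p = 0.173) did not pass. They share 649 exon bases with each other on opposite strands.

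Beyond the Gimap8 end, the nearest gene, AI854703, lies 13.5 kb away. It went the other way from Gimap8, with 139, 115 and 177 normalised reads in the mutant and 343, 347 and 363 in the wild type. The groups did not overlap, and the gene fell by 1.30 on the log2 scale (SE 0.21, limma adjusted p = 0.00242). The zinc-finger genes Zfp775 (0.28 ± 0.14, adjusted p = 0.197) and Repin1 (0.29 ± 0.13, adjusted p = 0.158) did not pass. The noncoding Gm5111, 56.7 kb away, rose by 1.26 ± 0.26 (adjusted p = 0.00797). Farther out, the zinc-finger gene Zfp467 rose by 1.19 ± 0.26 (adjusted p = 0.0104). The pseudogene Zfp783, 691 kb away, changed by -0.42 ± 0.11 (adjusted p = 0.0259), and was not called without mutant replicates 1 or 2 or wild type replicates 2 or 3 (adjusted p up to 0.0849).

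Beyond the Gimap3 end, the neighbouring membrane protein genes Tmem176b and Tmem176a lie 63.0 and 70.1 kb away. Tmem176b had 6726, 5539 and 4259 normalised reads in the mutant and 4774, 4221 and 3816 in the wild type, overlapping, and Tmem176a 2161, 1855 and 1392 in the mutant and 1458, 1501 and 1324 in the wild type. For both, mutant replicate 1 was highest and mutant replicate 3 lowest among the mutant libraries, as for Gimap1. Neither passed (0.35 ± 0.16, adjusted p = 0.159, and 0.32 ± 0.16, adjusted p = 0.199), but with mutant replicate 3 left out each did (adjusted p = 0.0326 for Tmem176b and 0.0397 for Tmem176a), and Repin1 did too (0.0173). Next came Gpnmb, a glycoprotein gene of lysosomes, with 55.9, 23.5 and 33.1 in the mutant and 5.30, 3.82 and 8.90 in the wild type. It rose by 2.44 ± 0.55 (adjusted p = 0.0128, and 0.0583 without mutant replicate 1). Malsu1 (0.15 ± 0.13, adjusted p = 0.439) did not pass. Igf2bp3, which encodes a fetal RNA-binding protein, rose by 1.32 ± 0.26 (adjusted p = 0.00638), and the splicing factor gene Tra2a by 0.33 ± 0.10 (adjusted p = 0.0479). Tra2a missed the threshold in each fit with 1 library fewer (adjusted p up to 0.164), with the replicate block (0.0538) and with no filter on low values (0.0538).

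GIMAP proteins have been reported to bind proteins of the BCL2 family, of the GABARAP family of autophagy, the kinase GSK3 beta and the chaperone HSC70. Of 14 genes of such partners and some of their close relatives, all tested, 5 rose and 1 fell in the mutant, with a median log2 change of 0.38. This is 42.9% of them, where 7.94% of all tested genes rose and 10.9% fell, 18.8% in all. Earlier results of these data were known when the list was written. The number called was 2 without mutant replicate 2, 3 without wild type replicate 2 and 3 without wild type replicate 3. Bcl2, the survival gene, had 18884, 20497 and 15899 normalised reads in the mutant and 9863, 9709 and 7510 in the wild type. Its libraries did not overlap, and it rose by 1.03 ± 0.13 (limma adjusted p = 0.000847). Its relative Bcl2l1 rose by 0.61 ± 0.13 (adjusted p = 0.0107), and the gene of the kinase, Gsk3b, by 0.41 ± 0.10 (adjusted p = 0.0159, and up to 0.0598 without mutant replicate 2 or wild type replicate 1).

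Bcl2l11, which encodes the death-promoting protein BIM, was the partner gene that fell. It had 1683, 1890 and 2096 normalised reads in the mutant and 2553, 2506 and 2810 in the wild type, without overlap (log2 change -0.48 ± 0.12, limma adjusted p = 0.0204). It kept its call without mutant replicate 3, and missed the threshold in the fits without each of the other 5 libraries (adjusted p up to 0.0657). Map1lc3b, the autophagy gene for LC3B, rose by 0.35 ± 0.10 (adjusted p = 0.0379). Of the 6 fits with 1 library fewer, it passed in that without wild type replicate 1 and missed the threshold in 5 (up to 0.123). Mcl1, another survival gene of the BCL2 family, rose by 0.41 ± 0.13 (adjusted p = 0.0473). It likewise passed without wild type replicate 1, missing the threshold in the other 5 such fits (up to 0.152) and with edgeR (0.0522). Gabarap, Gabarapl1, Gabarapl2, Map1lc3a, Bax, Bak1, Bad and Hspa8 did not pass. Their log2 changes ran from -0.42 for Hspa8 to 0.59 for Bak1.

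The tested genes whose log2 values over the 6 libraries were most like those of the summed protein-coding members were Trbv13-2, a variable segment of the T-cell receptor beta locus on the same chromosome, Ddah2, Bcl2l1, Ppp1r18 and Zmym5. Pearson's r to the sum was 0.998 for Trbv13-2, 0.996 for Ddah2 and 0.995 for each of the other 3. The difference between genotypes enters these values, and they were the highest among all tested genes that are no member and have a gene name, so that they describe likeness in 6 libraries and no more. Trbv13-2 had 8618, 6915 and 7066 normalised reads in the mutant and 4780, 4735 and 3643 in the wild type. Ddah2, a gene of arginine metabolism, had 2711, 2363 and 2106 in the mutant and 1258, 1374 and 929 in the wild type. In both, mutant replicate 1 was the highest library and wild type replicate 3 the lowest, as in the summed members.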

How the data were processed

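The labels' protocols describe total RNA turned into full-length cDNA with the SMART-Seq v4 low-input kit, cut and tagged with Nextera XT, and read in pairs on an Illumina HiSeq. STAR 2.5.3, featureCounts and DESeq2 1.20.0, with mm10 or GRCm38, are named per the submitters' processing notes. How reads were counted is not given in the sources used here. What the authors deposited is a signal per gene and library, which from the values is a whole number of reads divided by a size factor of the library. With the smallest value of a library taken as 1 read, 100.0% of 126810 values came out whole to within 0.1 reads. Replicates differed by more than counting noise (chi-square 26.7 to 55.3 per degree of freedom). A symbol was found for 21100 of 21135 genes.

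Genotype was tested with limma 3.58.1 (R 4.3.3, mean-variance trend, two-sided) on log2(value + 1) with the wild type subtracted from the mutant, for the 17815 genes whose mean was at least 10, adjusted by Benjamini-Hochberg over all of them at 0.05. Log2 changes are on this scale, which understates those of rare transcripts, and a fold is the ratio of the mean normalised counts of the genotypes. Adjusted p-values are from this fit unless edgeR is named. The count tests on recovered reads called 3283 genes with edgeR 4.0.16 and 4168 with DESeq2 1.42.0, against 3352 with limma. The methods were tested on simulated counts. The members, lists and tests were chosen with earlier results of these data known. The genes named were all members, the 4 nearest tested genes on each side and those inside the cluster, other called genes within 1 Mb, the 6 partners with the smallest p, the 5 genes most like the summed members, and Myc and Pvt1, of which Pvt1 was only fitted. Any other gene was named after its values were seen. The marker lists of double- or single-positive thymocytes and of mature T cells are not reported here.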

Additional observations from a re-analysis of the deposited data

How the results depend on the processing

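The 9 members were refitted under 15 other settings, and 8 kept a positive log2 change in each, while Gimap3 was positive in 3. Their median stayed between 0.83 and 1.03 on leaving out 1 library at a time. Over all genes, 1905 (without wild type replicate 2) to 2788 were called on leaving out 1 library. With every library scaled to the same total the calls split into 1827 higher and 1647 lower, against 1414 and 1938. The genes called within 1 Mb of the cluster numbered 5 to 10, and the called binding partners 2 to 6, on leaving out 1 library, and 7 genes near the cluster were called when Gm28053, which shares exon bases with members, was left out, a choice made after seeing the data. With the replicate number as a block 3066 genes were called, 7 of them within 1 Mb and 7 among the partners. Same-numbered libraries did not deviate together over all genes (r from -0.07 to -0.01, against -0.06 to 0.10 for different numbers). A link that touches only some genes could be missed this way, and whether same-numbered libraries share more than a number is not known. Of 402 refits of 27 genes of the naming rule that are no member, 35 lost and 3 gained a call, and the cause was not tested. Depth limits Gimap3, which had 16 to 76 reads per library, and Gimap4, with 55 to 133.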
